A study of Mus musculus with 61 samples.

Results

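Glycolysis and lactate transport were examined as a group of 31 mouse genes, and their H3K27ac was compared between WT and Sall1 enhancer knockout (EKO) microglia and between the nuclei of 3 brain cell types. The genes comprise the 3 hexokinases, the enzymes from glucose-6-phosphate isomerase to pyruvate kinase, 2 subunits of lactate dehydrogenase, 2 glucose transporters, 3 monocarboxylate (lactate) transporters and 7 regulators. They were chosen by name. Windows of the deposited microglia table belonged to a gene when the table named it as the nearest gene, which gave 314 of 133129 windows for 29 of the 31 genes. Aldoc and Pfkfb1 had none. Of the 314, 103 lay within 3000 bp of the TSS (promoter side) and 211 farther away (distal).

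Glycolysis splits glucose into pyruvate in the cytosol, and lactate dehydrogenase interconverts pyruvate and lactate. Lactate crosses the plasma membrane through monocarboxylate transporters, of which MCT4 (Slc16a3) is known for export from strongly glycolytic cells and MCT2 (Slc16a7) for high-affinity uptake, in the brain above all by neurons. Brain cells differ in which isoforms they use, for example Eno2 in neurons and Aldoc in astrocytes, and activated macrophages and microglia raise glycolysis through Hif1a and its targets.

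H3K27ac, an acetylation of histone H3 found at active promoters and enhancers, was measured by ChIP–seq on the C57/Bl6 background. WT mice are labelled wild type, and EKO mice carried a homozygous CRISPR deletion of the microglial super-enhancer upstream of Sall1, a transcription factor gene of microglia. The study used young adult males for both genotypes. Microglia are labelled as whole CD45+ CD11b+ CX3CR1+ cells (2 WT and 2 EKO libraries), a gate that the study's methods narrow to low CD45, which is meant to leave out cells high in CD45 such as border macrophages and monocytes, and nuclei were sorted for PU1 (microglia), NeuN (neurons) or Olig2 (oligodendrocyte lineage), again with 2 WT and 2 EKO libraries each. Peak lists, 1 per group, came from ChIP–seq of SALL1 in WT, EKO, PWK and Spret microglia (the last pair are wild-derived strains), of SMAD4 in WT and mutant microglia and of p300, a co-activator, in WT. The mutant SMAD4 libraries carry a conditional SMAD4 deletion in their genotype label and the Sall1 EKO in their description, and the p300 group mixes whole microglia with PU1 nuclei. No label says that libraries of a group came from separate animals, so the p values below measure the spread between libraries, which may be technical.

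Depths of the microglia libraries were 24357798 and 10047696 tags in WT and 9963453 and 13392912 in EKO. EKO library 1 stood apart. Summed over all windows, its tags came to 97.2% of its depth against 33.2% to 54.9% in the others, so log2 levels were quantile normalized before the test. Windows overlap, so a tag can count more than once in these sums. PU1 WT library 1 also stood apart, listing 11149 regions where the other PU1 libraries listed 25990 to 36057. The labels held at Sall1 itself. The window at its TSS had 241 and 108 normalized tags in WT and 0 and 2.24 in EKO microglia, and its promoter signal was 358 and 949 in PU1 WT nuclei and listed at 0 in both PU1 EKO libraries. All 8 neuronal markers were listed in every NeuN library, all 9 markers of the oligodendrocyte lineage in every Olig2 library, and 7 or 8 of 8 microglial markers in every PU1 library, where no neuronal marker was listed. PU1 libraries also listed 1 or 2 of the 9 oligodendrocyte lineage markers and 1 or 2 of 4 endothelial markers. NeuN libraries listed 2 of those 9, and Olig2 libraries 1 or 3 of the 8 neuronal markers. Olig2 nuclei also listed 4 of 6 astrocyte markers (Gfap, Aqp4, Slc1a3, Aldh1l1, Gja1 and S100b), so values of Olig2 nuclei may include astrocytes, which was not tested. Markers of border macrophages and monocytes moved with the genotype in microglia. Over the promoter-side windows of 6 border macrophage markers, summed tags were 106 and 87.6 in WT against 885 and 329 in EKO, and over those of 3 of 4 monocyte markers 196 and 183 against 2664 and 854. In PU1 nuclei, 0 and 3 of the 4 monocyte markers were listed in WT libraries 1 and 2, and 1 in each EKO library. Their summed signal was 0 and 144 against 754 and 527, so the EKO sum there rested on 1 marker. By RNA sequencing the study reported no expression of Ccr2 or Lgals3 and unchanged Sall3 in EKO microglia. It also reported higher Mrc1, 1 of the 6 border macrophage markers, in EKO microglia. The part of border macrophages and monocytes in the differences below was not tested. In bulk libraries a shift in the mix of cells and a shift of acetylation within cells cannot be told apart.

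Promoters of genes whose acetylation differed between genotypes or cell types are shown with RefSeq sequence (GRCm38.p6, the mm10 build of the files), mostly upstream of the start site and on the coding strand. Slc16a3 lost H3K27ac over its promoter in EKO microglia, Ldhb lost it in the window just downstream, which overlaps the stretch shown only in part, Hk3 was listed only in PU1 nuclei and Eno2 only in NeuN nuclei. Capitals mark the letters ACGTG and GCGTG (cores of the hypoxia response element bound by HIF1), GGAAGT (a core of PU.1 and related ETS factors), CAGAC (a SMAD box) and AATAT (an AT-rich run), each searched on both strands, where matches may overlap.
Slc16a3 promoter, chr11:120948817-120949116, plus strand: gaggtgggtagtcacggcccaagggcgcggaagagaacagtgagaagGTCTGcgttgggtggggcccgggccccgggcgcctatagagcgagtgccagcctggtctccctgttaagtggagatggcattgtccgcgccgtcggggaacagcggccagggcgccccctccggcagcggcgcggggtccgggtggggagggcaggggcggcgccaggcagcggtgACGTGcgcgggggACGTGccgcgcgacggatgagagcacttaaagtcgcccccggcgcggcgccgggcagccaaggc
Ldhb promoter, chr6:142507908-142508207, minus strand: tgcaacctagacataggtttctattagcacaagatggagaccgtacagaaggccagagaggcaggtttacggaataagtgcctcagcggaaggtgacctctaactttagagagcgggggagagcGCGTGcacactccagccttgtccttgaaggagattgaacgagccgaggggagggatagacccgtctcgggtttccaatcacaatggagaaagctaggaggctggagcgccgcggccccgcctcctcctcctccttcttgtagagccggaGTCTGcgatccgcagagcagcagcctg
Hk3 promoter, chr13:55021336-55021635, minus strand: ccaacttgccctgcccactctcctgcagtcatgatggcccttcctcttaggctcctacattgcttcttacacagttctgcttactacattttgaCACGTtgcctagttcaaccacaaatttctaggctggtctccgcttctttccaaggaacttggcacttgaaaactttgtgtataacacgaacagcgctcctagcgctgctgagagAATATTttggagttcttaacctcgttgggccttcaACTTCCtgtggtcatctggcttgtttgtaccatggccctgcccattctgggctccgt
Eno2 promoter, chr6:124769624-124769923, minus strand: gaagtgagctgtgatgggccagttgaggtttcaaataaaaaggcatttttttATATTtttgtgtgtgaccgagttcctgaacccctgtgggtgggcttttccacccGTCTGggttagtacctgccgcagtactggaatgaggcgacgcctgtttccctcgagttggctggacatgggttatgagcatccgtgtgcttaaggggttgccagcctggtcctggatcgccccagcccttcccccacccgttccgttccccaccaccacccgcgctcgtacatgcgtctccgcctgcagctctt
The Slc16a3 promoter held ACGTG at 2 places, close together upstream of the start, and the Hk3 promoter held 1 GGAAGT. The Ldhb promoter held 1 GCGTG. No hypoxia core was in the Eno2 window. Among all 32851 promoters of the same length, 19.6% held ACGTG, 32.4% GCGTG, 23.8% GGAAGT, 49.6% CAGAC and 25.3% AATAT. Of 48 promoters listed for 29 of the genes (Slc16a7 and Slc2a3 had no entry), 22 held ACGTG (45.8%) and 24 held GCGTG (50.0%), whereas 7 held GGAAGT (14.6%). These matches describe letters and not sites in use.

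In WT microglia the promoters of Aldoa, Eno1, Hif1a and Pfkfb3 carried the highest H3K27ac of the group, with window means of 279.6, 194, 192 and 162 normalized tags (tags per 10000000) at the tested window nearest to the TSS. Ldha, Pgam1, Hk2, Pfkl and Hk3 followed between 104 and 128. At the low end Slc16a7 and Pfkm had 8.03 and 3.67. Pfkp, Eno2, Slc2a3 and Pdk2 had windows, but none reached the mean of 16 tags needed for the test. The highest tag value of Eno2 in any library was 21.1, of Pfkp 10.0 and of Pdk2 16.1. Of Slc2a3 it was 17.1, and Aldoc had no window.

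**Figure D1:**
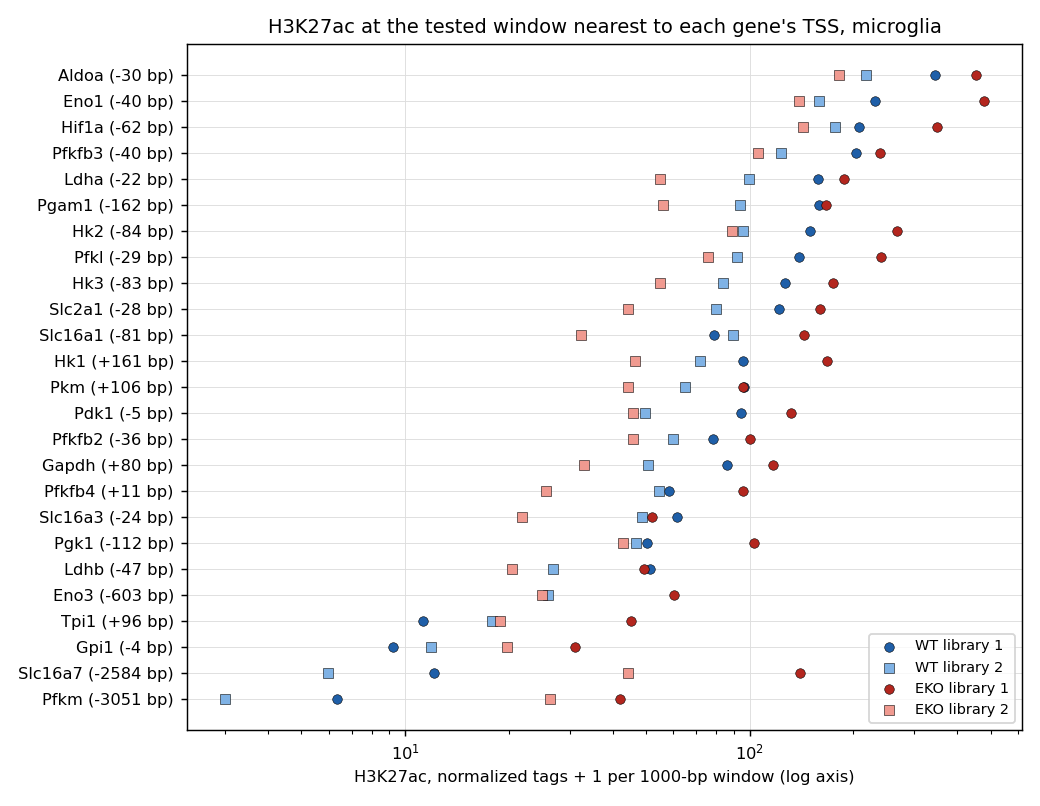
Normalized H3K27ac tags plus 1 (log axis) of each of the 4 microglia libraries at the tested window nearest to the TSS of 25 genes, ordered by the WT mean, with the distance of the window to the TSS. WT and EKO points intermingle at most genes, EKO library 1 is usually the highest, and Slc16a7 and Pfkm at the bottom are the genes with both EKO points far above both WT points.

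Few of these promoters passed the test for a difference between EKO and WT. Of 171 windows of 25 genes that passed the filter of a mean above 16 tags, 77 were on the promoter side. Among those 77, 3 lost and 1 gained H3K27ac (limma on quantile normalized log2 values, adjusted p below 0.05 and fold above 2). All promoter-side windows gave 3.31% losing and 5.08% gaining, so the share of these genes, 3.90% and 1.30%, was close to the background for losses and below it for gains. Among 94 distal windows, 9 lost (9.57%, background 11.0%) and 13 gained (13.8%, background 11.6%). The median log2 change was −0.18 on the promoter side and −0.01 in distal windows, against 0.02 and −0.10 over all windows. The filter bears on these counts, since 9 of the 14 gaining windows (all of Gpi1, Pfkl and Pfkm and 6 of Slc16a7) had a WT mean at or below 16 tags and were tested only through the EKO libraries, where they are high (61.1% of all gaining windows), and 4 of the 12 losing windows (2 of Gapdh, 1 of Hk1 and 1 of Slc2a1) had an EKO mean at or below it (35.7%). The 12 losing windows belonged to 7 genes (Slc16a3, Ldhb, Gapdh, Hk1, Hk2, Slc2a1 and Pfkfb3) and the 14 gaining windows to 7 genes (Slc16a7, Pfkl, Pfkm, Gpi1, Hk3, Pdk1 and Pfkfb3), with 7 of the 14 at Slc16a7. Windows overlap in part, and the calls covered 9 separate losing and 12 separate gaining stretches. None of the 171 windows passed the test on the values as deposited, where 0.0529% of all promoter-side windows lost and 0.395% gained, and 0.189% and 1.15% of distal ones (0.128% and 0.814% over both sides). edgeR on the recovered tags called 21 and DESeq2 15 of the 26. The calls needed all 4 libraries, since without WT library 1 or EKO library 1 none of the 26 passed, without WT library 2 3 and without EKO library 2 5.

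**Figure D2:**
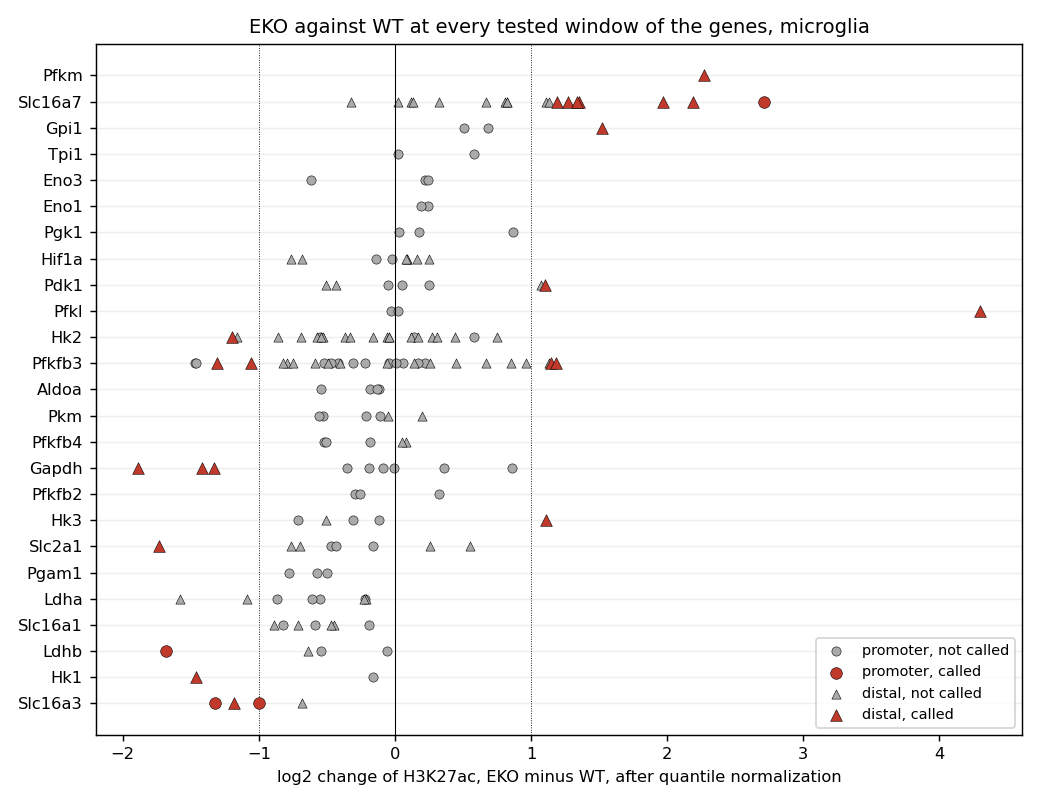
Log2 change of H3K27ac (EKO minus WT, quantile normalized) at each of the 171 tested windows of 25 genes, with circles for promoter-side and triangles for distal windows, called windows in red and dotted lines at a 2-fold change. The called promoter circles are those of Slc16a3 and Ldhb on the left and Slc16a7 on the right, promoter windows of Pfkfb3 near −1.47 were not called, and Pfkl has the highest value at 4.30.

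The lactate transporters went in different directions. Slc16a3 lost H3K27ac at 3 of 4 tested windows, Slc16a7 gained it at 7 of 18, and none of the 7 windows of Slc16a1, the broadly expressed transporter MCT1, was called. Over all tested windows 7.56% lost and 8.68% gained. Some called windows of Slc16a3 and of Slc16a7 overlap, so these are not counts of separate sites. At the Slc16a3 promoter (chr11:120948533-120949533, whose sequence is shown above), tags were 92.4 and 66.7 in WT and 54.2 and 26.1 in EKO. Both EKO values lay below both WT values. The log2 change was −1.32 ± 0.268 (SE, adjusted p = 0.00110). The overlapping window at the other start site fell just past the 2-fold limit (60.4 and 47.8 in WT, 51.2 and 20.9 in EKO, adjusted p = 0.0158), and there EKO library 1 lay above WT library 2. The strongest acetylation of the gene lay in its last intron, 8698 bp from the TSS (chr11:120957265-120958265), with 337 and 191 tags in WT and 249 and 70.9 in EKO. That window fell by 1.18 on the log2 scale ± 0.165 (adjusted p = 2.57e-05) and overlapped a SMAD4 peak of WT microglia that ranked 697 of 4024 by score, with no SMAD4 peak in the mutant list.

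At Slc16a7 the WT values were low and the EKO values high, and 6 of its 7 gaining windows passed the filter only through the EKO libraries. The largest change lay upstream of the start site, 2584 bp away (chr10:125331047-125332047, intergenic), with 11.1 and 4.98 tags in WT and 139 and 43.3 in EKO. The groups did not overlap, and the log2 change was 2.71 ± 0.374 (adjusted p = 2.12e-05). A pair of overlapping windows in intron 1, 7075 and 7331 bp from the TSS, gained 2.19 and 1.97. The other 4 gaining windows, in intron 1, in intron 3 and near 59 kb upstream, gained between 1.19 and 1.35. Both EKO values exceeded both WT values in all 7. On the deposited values without EKO library 1, which leaves EKO library 2 alone and assumed to vary like WT, the windows 2584 bp upstream and 7075 bp downstream passed the test (log2 changes 2.38 and 1.83, adjusted p = 0.00292 and 0.0246), whereas the Slc16a3 promoter did not (−1.55, adjusted p = 0.119).

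At Slc16a1 the TSS window held 77.6 and 88.6 tags in WT and 143 and 31.4 in EKO, so the EKO libraries lay on either side of WT. Its log2 change was −0.59 ± 0.273 (adjusted p = 0.125), and the 7 windows ranged from −0.89 to −0.19.

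**Figure D3:**
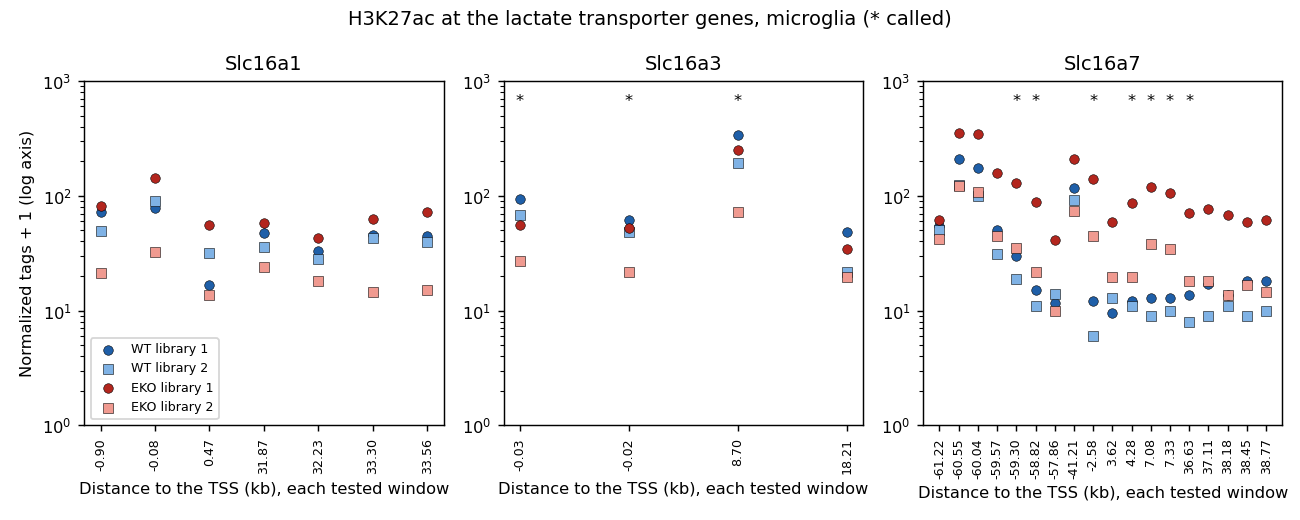
Normalized H3K27ac tags plus 1 (log axis) in each microglia library at every tested window of Slc16a1, Slc16a3 and Slc16a7, ordered by distance to the TSS in kb, with asterisks over called windows. At Slc16a3 the light red EKO library 2 is lowest at every window, whereas at the Slc16a7 window 2584 bp upstream both EKO points (139 and 43.3 tags) stand above both WT points (11.1 and 4.98).

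Lactate dehydrogenase is a tetramer of A (Ldha) and B (Ldhb) subunits, of which B is usually linked to lactate use. In Ldhb, a window in intron 1 just downstream of the TSS (chr6:142506986-142507986, 471 bp) fell by 1.68 on the log2 scale ± 0.410 (adjusted p = 0.00473), from 51.7 and 26.9 tags in WT to 22.1 and 10.4 in EKO. It overlapped a p300 peak. The window centred on the TSS itself had 50.5 and 25.9 against 48.2 and 19.4 (−0.54, adjusted p = 0.263), so the call rested on the downstream flank. At Ldha the TSS window had 157 and 98.5 tags in WT and 187 and 53.8 in EKO. Its change of −0.55 had an adjusted p of 0.0477 and stayed under 2-fold, and none of the 8 windows of Ldha was called.

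Among the hexokinases, which trap glucose in the cell, none of the TSS windows was called. Hk2 had 149 and 94.5 tags in WT and 266 and 88.1 in EKO (log2 change 0.14, adjusted p = 0.635). Hk1 had 94.8 and 70.7 against 167 and 45.5 (−0.16, adjusted p = 0.651) and Hk3, the hexokinase of myeloid cells, 126 and 82.6 against 174 and 53.8 (−0.31, adjusted p = 0.292). In each of them the EKO libraries lay on either side of at least 1 WT library. Distal windows were called in each. In intron 1 of Hk2, 10447 bp from the TSS (chr6:82763507-82764507), tags were 64.5 and 39.8 in WT and 39.1 and 18.7 in EKO, a log2 change of −1.20 ± 0.318 (adjusted p = 0.00849). The overlapping window 10124 bp from the TSS changed by −0.86 and was not called (adjusted p = 0.0358, under 2-fold). In intron 5 of Hk1 a window fell from 24.2 and 18.9 to 21.1 and 5.97 (−1.46 ± 0.520, adjusted p = 0.0455), with overlapping groups. Upstream of Hk3, 3046 bp from the TSS, a window rose from 22.6 and 12.9 to 103 and 23.9 (1.11 ± 0.361, adjusted p = 0.0290), where EKO library 2 exceeded the WT libraries only narrowly.

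The Hk2 intron window was the only called window of the group that overlapped SALL1, SMAD4 and p300 peaks of WT microglia together. The SALL1 peak there (chr6:82764247-82764495) ranked 1534 of 15410, the SMAD4 peak 412 of 4024 and the p300 peak 771 of 9177 by score. SALL1 of PWK microglia and SMAD4 of the mutant list had peaks there too. A SALL1 peak also lay in the gaining window 29733 bp upstream of Pdk1, in an intron of a neighbouring transcript (chr2:71843330-71843583, rank 11467). Both are shown on the plus strand of mm10, with the same letters in capitals, because they are SALL1 sites with acetylation changes in opposite directions.
Hk2 SALL1 peak: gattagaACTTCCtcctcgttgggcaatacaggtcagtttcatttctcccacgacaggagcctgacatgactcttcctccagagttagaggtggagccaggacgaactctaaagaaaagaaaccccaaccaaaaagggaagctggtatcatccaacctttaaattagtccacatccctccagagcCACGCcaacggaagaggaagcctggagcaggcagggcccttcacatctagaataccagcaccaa
Pdk1 SALL1 peak: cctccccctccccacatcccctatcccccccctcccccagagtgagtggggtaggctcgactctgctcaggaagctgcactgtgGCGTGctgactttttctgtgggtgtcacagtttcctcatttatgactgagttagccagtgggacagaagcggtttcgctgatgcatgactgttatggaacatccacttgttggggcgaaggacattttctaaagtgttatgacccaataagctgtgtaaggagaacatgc
The Hk2 peak held 1 GGAAGT, as did 47.0% of 15396 stretches of its length centred on SALL1 peaks, and 1 GCGTG (11.7%). The Pdk1 peak held 1 GCGTG and no GGAAGT. Neither held CAGAC or AATAT.

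In the upper part of glycolysis only gains passed the test, at 3 of 13 windows, all distal and all tested only through the high EKO values. Over all tested windows 8.68% gained and 7.56% lost. Phosphofructokinase commits sugar to glycolysis and has liver (Pfkl), muscle (Pfkm) and platelet (Pfkp) forms. Upstream of Pfkl, 5880 bp from the TSS (chr10:78015187-78016187, intergenic), tags were 0.820 and 0 in WT and 45.2 and 28.4 in EKO, with a log2 change of 4.30 ± 0.904 (adjusted p = 0.00149), and the sequence at the middle of the window is given to show a site with almost no tags in WT.
Pfkl window, chr10:78015538-78015837, plus strand: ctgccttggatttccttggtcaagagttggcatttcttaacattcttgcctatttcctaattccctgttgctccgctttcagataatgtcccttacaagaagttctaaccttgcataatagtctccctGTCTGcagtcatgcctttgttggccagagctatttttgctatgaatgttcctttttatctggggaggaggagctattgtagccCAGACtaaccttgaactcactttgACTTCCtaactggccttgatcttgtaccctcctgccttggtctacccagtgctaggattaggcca
It held 1 GGAAGT (46.2% of 30645 distal windows over the same length) and 2 CAGAC (59.4% with at least 1), and no SALL1, SMAD4 or p300 peak. The Pfkl promoter itself was not called (138 and 90.6 in WT, 239 and 74.7 in EKO, log2 change 0.02, adjusted p = 0.948). At Pfkm the only tested window, 3051 bp upstream of the TSS and annotated in an intron of a neighbouring transcript, rose from 5.34 and 1.99 to 41.1 and 25.4 tags (2.27 ± 0.597, adjusted p = 0.00825). Gpi1, which isomerizes glucose-6-phosphate, gained upstream of its promoter (−3756 bp, over a p300 peak) from 23.8 and 6.97 to 98.4 and 28.4 (1.52 ± 0.403, adjusted p = 0.00871), where EKO library 2 and WT library 1 were close. At its TSS the values were 8.21 and 10.9 in WT and 30.1 and 18.7 in EKO (0.68, adjusted p = 0.373). At Aldoa, the aldolase of most tissues, the TSS window held 343 and 216 tags in WT and 452 and 181 in EKO (−0.18, adjusted p = 0.419).

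In the lower part only losses passed, at 3 of 26 windows (7.56% of all tested windows lost and 8.68% gained). All of them were overlapping windows past the 3′ end of Gapdh, so the count describes that locus and not the lower part as a whole. The strongest (4963 bp from the TSS, annotated in an exon of a neighbouring noncoding transcript) had 25.9 and 22.9 tags in WT and 17.1 and 5.23 in EKO, a log2 change of −1.89 ± 0.528 (adjusted p = 0.0124). The Gapdh promoter had 85.0 and 49.8 against 116 and 32.1 (−0.35, adjusted p = 0.354). Enolase 1, the common form, had 229.5 and 158 tags at its TSS in WT and 479 and 138 in EKO (0.19, adjusted p = 0.403), and muscle-type Eno3 had 24.6 and 24.9 against 59.2 and 23.9 (0.24, adjusted p = 0.653). No window of Pgk1, Pgam1, Eno1, Eno3 or Pkm was called, and their median changes ran from −0.57 (Pgam1) to 0.22 (Eno3).

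Of the glucose transporters, Slc2a1 (GLUT1) had 121 and 78.6 tags at the TSS in WT and 159 and 43.3 in EKO (−0.47, adjusted p = 0.122). A window in its intron 1, 10255 bp away, changed by −1.73 ± 0.597 (19.3 and 21.9 in WT, 22.1 and 3.73 in EKO, adjusted p = 0.0401). EKO library 1 was the highest of the 4 there before normalization, and EKO library 2 alone lay below WT. At Slc2a3 (GLUT3) no window was tested.

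Regulators changed in both directions, and only in distal windows. Pfkfb3 makes fructose-2,6-bisphosphate, the activator of phosphofructokinase, and had the most tested windows of any member, 30, of which 2 lost and 2 gained. Its TSS window held 202 and 122 tags in WT and 238 and 105 in EKO (−0.22, adjusted p = 0.414). The strongest loss (26830 bp from the TSS) went from 41.0 and 19.9 to 32.1 and 7.47 (−1.31 ± 0.452, adjusted p = 0.0392), with overlapping groups. The strongest gain (18965 bp) went from 38.6 and 24.9 to 146 and 51.5 (1.18 ± 0.266, adjusted p = 0.00257), and the other gain held a SALL1 peak. Pdk1, which inhibits pyruvate dehydrogenase, had 93.2 and 48.8 tags at the TSS against 131 and 44.8 (−0.05, adjusted p = 0.901). The SALL1- and p300-bound window 29733 bp upstream is annotated in an intron of a neighbouring transcript. It rose from 37.0 and 31.9 to 124 and 65.0 (1.10 ± 0.274, adjusted p = 0.00586). The windows nearest to the TSS of Pfkfb2, Pfkfb4 and Hif1a changed by −0.26, −0.51 and −0.02, and none was called. At the Hif1a promoter tags were 207 and 176 in WT and 349 and 142 in EKO. At Pfkfb2 they were 77.2 and 58.7 against 99.4 and 44.8, and at Pfkfb4 57.5 and 53.7 against 94.3 and 24.6, and EKO libraries lay on either side of WT at all 3 genes.

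Across the called windows, both EKO values as deposited lay below both WT values at 5 of 12 losing windows (6.12% of all tested windows have that order) and above both at 14 of 14 gaining windows (17.8% of all). The calls came from these same 4 libraries, so this order follows in part from the call and is no separate support. The shares are over all tested windows and not over called ones. Libraries of PU1 nuclei gave a separate measurement of the same windows. In the nuclei both EKO values lay above both WT values at 11 of 14 gaining windows, the exceptions being 1 window of Hk3 and 2 of Pfkfb3 (81.9% over all gaining windows), and both lay below WT library 2 at 10 of 12 losing windows, the exceptions being Hk2 and Slc2a1 (84.9% over all losing windows). Against both WT libraries, the order used for gains, 4 of 12 losing windows (3 of Gapdh and 1 of Hk1) had both EKO values below (16.4% over all losing windows). At the Slc16a7 window 2584 bp upstream the nuclei signal was 0 and 18.3 in PU1 WT and 103 and 83.7 in PU1 EKO, and no region was listed there in NeuN or Olig2 nuclei. At the Pfkl window it was 0 in both WT libraries and 54.9 and 23.7 in EKO. At the Slc16a3 promoter window it was 0 and 71.8 in WT and 23.0 and 20.4 in EKO, so PU1 WT library 1 lay below and PU1 WT library 2 above the EKO libraries. At the Hk2 intron window the nuclei gave 42.2 and 121 in WT and 141 and 101 in EKO and did not show the order seen in whole microglia.

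SALL1 occupied several loci of the group in WT. Its peaks overlapped 17 of 103 promoter-side windows (16.5%, against 9.37% of all promoter-side windows) and 36 of 211 distal windows (17.1%, against 15.6%), and none in the EKO (0.0118% of all distal windows), whose whole list held 7 peaks. The highest ranked were at the Pfkfb4 TSS (rank 497 of 15410, 173 bp upstream), in Pfkfb3 (rank 674) and around Hk2, where the best of 5 peaks ranked 1247. Hk3 had peaks 138 bp downstream of the TSS (rank 3317) and 1509 bp upstream. p300 peaks overlapped 15 promoter-side windows (14.6%, background 12.6%) and 23 distal windows (10.9%, background 8.40%). SMAD4 peaks of WT overlapped 2 promoter-side windows (1.94%, background 5.93%), both of Pkm, and 12 distal windows (5.69%, background 4.45%). Of PWK microglia, SALL1 peaks overlapped 3 promoter-side windows (background 2.27%) and 9 distal windows (3.92%), and of Spret 5 distal windows (2.59%). The mutant SMAD4 list overlapped 0 promoter-side (4.11%) and 8 distal windows (2.57%). Within 2 kb of the start site, SALL1 had a peak at 7 of 31 genes (Hk3, Gpi1, Gapdh, Slc2a3, Pfkfb3, Pfkfb4 and Pdk1, against 7.55% of all TSS), WT SMAD4 at 1 (4.73%), mutant SMAD4 at 0 (3.20%) and p300 at 9 (10.9%). Of 16 tested promoter-side windows with a SALL1 peak none was called, and of 29 tested distal ones 1 lost (Hk2) and 3 gained (Pdk1, Pfkfb3 and Slc16a7). Over all tested windows, with or without a peak, 3.31% lost and 5.08% gained on the promoter side, and 11.0% and 11.6% among distal ones. The counts were not set against other windows with a SALL1 peak, so they are not read as a result about SALL1. Peak lists hold no replicate values, so these overlaps were not tested. The SALL1 and SMAD4 lists of WT used here hold fewer peaks than the study describes, and a window without a listed peak is not shown to lack binding.

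In sorted nuclei the isoforms separated by cell type. Promoter H3K27ac was taken as the listed signal within 2 kb of the TSS, and 30 of the 31 genes had a listed region in at least 2 of 12 libraries. A value of 0 means that no region was listed, not that acetylation was absent. Against NeuN nuclei, PU1 nuclei were higher at 5 genes and lower at 15 (limma across 16306 TSS windows, of which 10.2% were higher and 39.4% lower), and the medians were −2.11 for the genes and −1.86 for all windows. Against Olig2 nuclei, 4 were higher and 8 lower (all windows 11.2% and 24.4%). NeuN exceeded Olig2 nuclei at 7 genes and fell below them at 2 (25.3% and 9.90%). Depth of these libraries is unknown, and PU1 WT library 1 had low values at nearly all genes. Without it the median difference of PU1 to NeuN was −1.08 for the genes and −0.90 for all windows. To Olig2 it was 0.06 and 0.00, against −0.67 and −0.84 with all libraries. The genes thus moved along with all windows. Leaving out PU1 WT library 2 instead leaves only the sparse PU1 WT library 1 in its group. Differences to the other cell types in that fit are not read as a result about these genes.

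**Figure D4:**
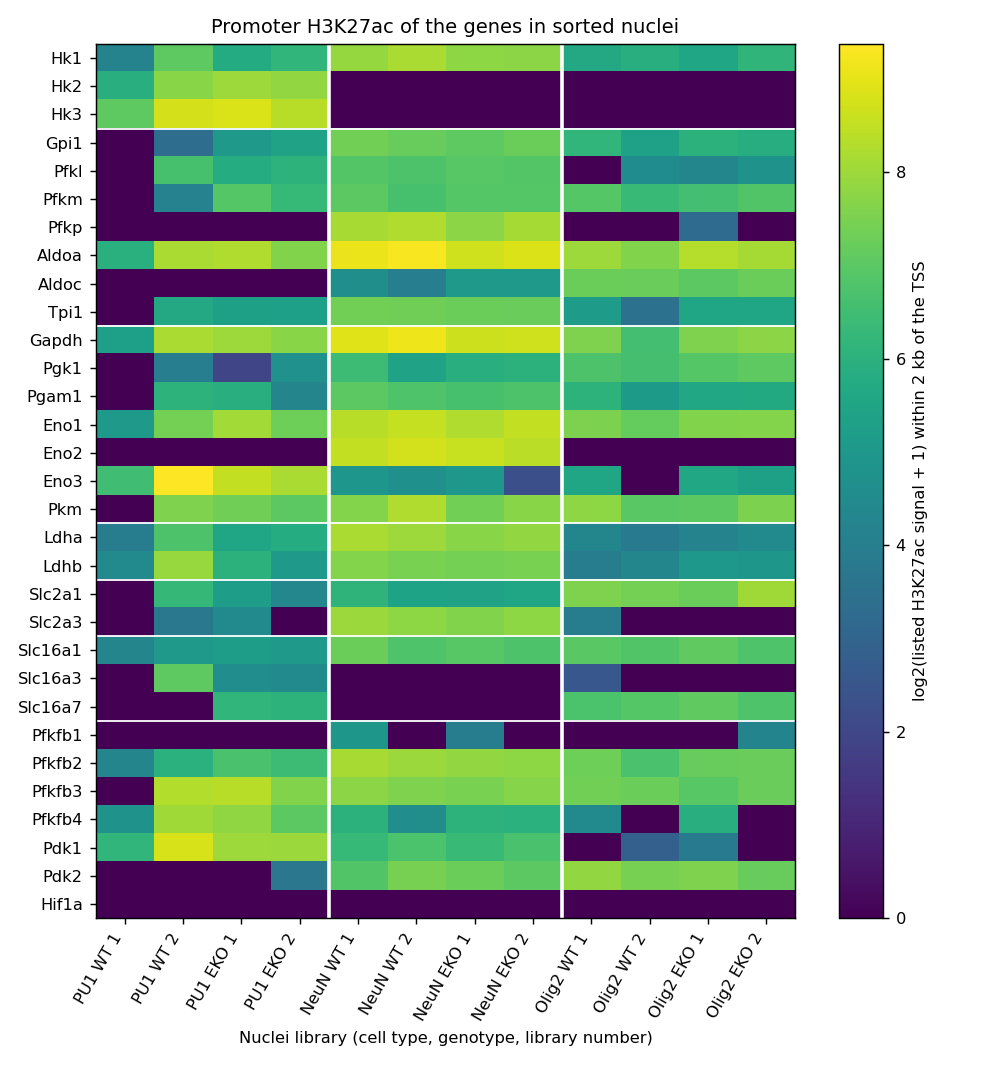
Heat map of log2(listed H3K27ac signal + 1) within 2 kb of the TSS for the 31 genes (rows, grouped by role) in the 12 nuclei libraries (columns). Hk2 and Hk3 are bright in the PU1 columns and dark elsewhere, Slc16a3 is listed in 3 PU1 columns and faintly in 1 Olig2 column, and bright cells mark Pfkp, Eno2 and Slc2a3 in NeuN columns and Aldoc in Olig2 columns. Slc16a7 is bright in Olig2 columns and in the 2 PU1 EKO columns.

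Hk2 and Hk3 marked PU1 nuclei. Hk3 signal was 131 and 439.8 in PU1 WT and 459 and 332 in PU1 EKO, and Hk2 58.7, 209, 257 and 231, while both genes were listed at 0 in all 8 NeuN and Olig2 libraries. The log2 differences to either cell type were 8.26 for Hk3 and 7.37 for Hk2 (adjusted p = 3.97e-07 and 7.81e-07 against NeuN). Values listed at 0 add no spread between libraries, so such sizes and p values set listed signal against a floor. This holds for every gene below that is listed at 0 throughout a cell type. Hk1 went the other way and was highest in NeuN nuclei, at 216 to 291 against 17.3 to 131 in PU1 (−2.12, adjusted p = 0.0195) and 45.1 to 68.7 in Olig2 nuclei. Eno3 was also high in PU1 nuclei, at 89.0 to 664 against 3.93 to 31.3 in NeuN (3.91, adjusted p = 0.0354), although Eno3 is known as the muscle enolase. Slc16a3 was listed at 130.1, 23.0 and 20.7 in 3 PU1 libraries and at 0 in PU1 WT library 1 and in all NeuN libraries (4.01, adjusted p = 0.0431), and at 4.91 in 1 Olig2 library. Pdk1 was at 71.2 to 445 in PU1 and 76.7 to 104 in NeuN nuclei, which did not differ by the test (adjusted p = 0.355), and at 0 to 13.8 in Olig2 nuclei. It exceeded Olig2 by 6.05 in PU1 (adjusted p = 0.00258) and by 4.82 in NeuN nuclei (adjusted p = 0.00829).

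NeuN nuclei were marked by Eno2, Pfkp and Slc2a3, the neuronal enolase, the platelet phosphofructokinase and the neuronal glucose transporter. Eno2 was at 337 to 422 in NeuN and at 0 in all 8 other libraries (−8.56 for PU1 against NeuN, adjusted p = 3.00e-08). Pfkp was at 214 to 302 in NeuN nuclei, listed once outside them (8.77 in Olig2 EKO library 1), and differed by −8.06 between PU1 and NeuN (adjusted p = 1.28e-05). Slc2a3 was at 193 to 248 in NeuN and at most 21.1 in PU1 nuclei (−5.73, adjusted p = 0.00768). Ldha and Ldhb were both higher in NeuN than in Olig2 nuclei, Ldha by 3.74 (211 to 288 against 13.4 to 20.6, adjusted p = 0.00150) and Ldhb by 2.95 (171 to 196 against 14.6 to 31.3, adjusted p = 0.0135). Pdk2 was listed in 1 of 4 PU1 libraries (12.2), at 113 to 173 in NeuN and at 147 to 230.3 in Olig2 nuclei, and the difference of PU1 to NeuN was −6.21 (adjusted p = 2.04e-04) and to Olig2 −6.59 (adjusted p = 2.07e-04). Gpi1 (9.17, 32.2 and 41.4 in 3 PU1 libraries and 0 in WT library 1) differed from NeuN (131 to 165) by −3.77 (adjusted p = 0.00249).

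Aldoc, the brain aldolase, was at 129 to 153 in Olig2, 15.1 to 32.7 in NeuN and 0 in PU1 nuclei (−7.20 for PU1 against Olig2, adjusted p = 2.76e-07, and −2.49 for NeuN against Olig2, adjusted p = 1.01e-04). Its paralog Aldoa was at 418 to 619 in NeuN, 192 to 321 in Olig2 and 61.5 to 302 in PU1 nuclei (PU1 against NeuN −1.49, adjusted p = 0.0270). Slc2a1 was at 153 to 264 in Olig2 and 0 to 74.2 in PU1 nuclei (−3.62, adjusted p = 0.0494). Pgk1 was at 95.8 to 131 in Olig2 and 0 to 25.6 in PU1 nuclei (−4.15, adjusted p = 0.0109). Slc16a1 was lower in PU1 (18.3 to 35.9) than in NeuN (107 to 154) and Olig2 nuclei (109.9 to 134), by −2.06 and −2.04 (adjusted p = 8.99e-04 and 0.00140). The promoters of Hk1, Aldoa, Gapdh, Eno1, Ldha, Ldhb, Slc16a1 and Pfkfb2, were listed in all 12 libraries.

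Slc16a7 was the only gene of the group whose promoter signal differed between genotypes in nuclei. It was listed at 70.8 and 65.7 in PU1 EKO and at 0 in both PU1 WT libraries (log2 difference 6.11, adjusted p = 2.42e-05, no fold is given against values listed at 0), at 0 in all NeuN libraries, and at 105 and 119 in Olig2 WT and 134 and 111 in Olig2 EKO. The EKO signal of PU1 nuclei thus fell below that of all 4 Olig2 libraries. The effect of the EKO differed between PU1 nuclei and the mean of NeuN and Olig2 nuclei by 6.05 (adjusted p = 1.18e-04), the only gene of the group for which it did (all windows 3.24% higher and 0.595% lower). No listed region lay within 1 kb of the start site in PU1 nuclei, and the signal came from the flank between 1 and 2 kb. In PU1 nuclei 1 gene was higher and 0 lower in EKO (all TSS windows 3.23% and 0.129%), and in NeuN and Olig2 nuclei 0 were called (all windows 0.552% higher and 0.270% lower in NeuN, 0.386% and 0.399% in Olig2).

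The EKO differences in PU1 nuclei depended on the WT libraries. Without PU1 WT library 1, the log2 differences of EKO to WT were 6.11 for Slc16a7, 2.45 for Pfkm, 1.88 for Gpi1 and −2.39 for Ldhb. With all libraries those of Pfkm, Gpi1 and Ldhb were 4.52, 3.56 and −0.67, and none of the 3 was called. Leaving out PU1 WT library 2 leaves only the sparse PU1 WT library 1, so differences in that fit are not read as a result about these genes. Leaving out PU1 EKO library 1 also leaves a lone library in its group, so no count is given for that fit. The values of Pfkm were 0 and 16.7 in PU1 WT and 119.5 and 76.8 in EKO, those of Gpi1 0 and 9.17 against 32.2 and 41.4, and those of Ldhb 21.4 and 241 against 64.4 and 31.7. Pfkm and Gpi1 were higher in both EKO libraries than in both WT libraries, whereas Ldhb WT libraries lay on either side of EKO. Slc16a3 had 0 and 130.1 in WT and 23.0 and 20.7 in EKO, again on either side.

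Hif1a, which encodes the hypoxia factor that activates many of these genes, has several start sites. Its start with the most windows in the table was listed at 0 in all 12 libraries, while the union over all its starts gave 27.5 to 232 in PU1, 133 to 156 in NeuN and 81.6 to 142 in Olig2 nuclei, with no contrast called. Pfkfb1, the liver form of the regulator, was listed in 3 of 12 libraries at 14.2 to 30.0. Its paralogs were widely listed, Pfkfb2 highest in NeuN (218 to 280.2) and lower in PU1 nuclei (18.3 to 101, −2.09, adjusted p = 0.00352), Pfkfb3 at 121 to 329 in 11 libraries and at 0 in PU1 WT library 1, and Pfkfb4 highest in PU1 nuclei (26.3 to 263) without passing the test.

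Other genes of sugar metabolism (60 genes of the hexosamine, pentose phosphate, glycogen, gluconeogenesis, hexose transport, pyruvate dehydrogenase and hypoxia pathways) had 145 tested windows of 43 genes. Of these 0 lost and 9 gained H3K27ac in EKO microglia, against 7.56% and 8.68% of all windows, and their median change was 0.11. As deposited, 1 window gained. The gains belonged to 6 genes. The largest lay at −90165 bp from the TSS of Epas1, which encodes HIF2α, and rose from 7.80 and 4.98 tags to 288 and 102 (4.05, adjusted p = 1.12e-08). The promoter of Slc2a6, a hexose transporter of macrophages, rose from 35.3 and 16.9 to 434 and 129 (2.93, adjusted p = 5.40e-08). A window upstream of Pgd, of the pentose phosphate pathway, rose by 2.58, and a window in the Fbp1 locus, a gene of gluconeogenesis, rose by 2.06. Both EKO values exceeded both WT values at each of these 4 windows, an order that 17.8% of all tested windows have. The order follows in part from the call and is no separate support. The windows of Epas1, Pgd and Fbp1 had WT means of 6.39, 3.79 and 8.65 tags, below the minimum mean of 16 tags. They were thus tested only through the high EKO libraries. The Slc2a6 promoter had a WT mean of 26.1 tags.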

How the data were processed

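ChIP–seq reads were aligned by the authors against mm10 (Bowtie2) and turned into tag directories with HOMER. Per the file headers and values, the deposited microglia table holds a signal, tags scaled to 10000000 per library, in 1000-bp windows on merged open regions. For nuclei, the deposited HOMER region lists, 1 per library, give a signal of tags scaled in the same way, and a ratio over input that was not used. The authors called SALL1, SMAD4 and p300 peaks per library and kept reproducible peaks (IDR), and the enrichment score of each deposited peak was used only for ranks. Every table value was a whole multiple of 1 tag (100% within 0.05 tags), so whole counts could be recovered from the deposited values of all 4 libraries. The 30 input samples were not used here.

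Windows with a mean above 16 tags were tested with limma 3.58.1 (R 4.3.3, mean-variance trend, Benjamini-Hochberg over all 55285) on log2(tags + 1) after quantile normalization. A pseudocount of 1 understates changes of low windows. edgeR 4.0.16 and DESeq2 1.42.0 ran on the recovered tags as alternatives. Nuclei were fitted with all 12 libraries together on log2(signal + 1) within 2 kb of the TSS of GRCm38.p6 (the start with most windows), a region crossing the border giving its share by length. With 2 libraries per group an exact permutation test cannot go below p = 0.33. Replicates differed by more than sampling noise (chi-square per degree of freedom 2.92 in WT and 2.89 in EKO). The genes and lists were chosen with earlier results of these data known. Genes were named when they belonged to a family with several members, had a called window (the largest change of each gene) or were among the 6 largest called differences per direction and cell type contrast. All others are given by range and count. 4 other sugar metabolism genes were named by the largest gain.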

Additional observations from a re-analysis of the deposited data

Results flagged for a closer look

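The EKO effect at the Slc16a7 promoter differed between cell types. It was 6.05 higher on the log2(signal + 1) scale in PU1 nuclei than the mean of NeuN and Olig2 nuclei (limma interaction contrast, adjusted p = 1.18e-04), and both PU1 EKO libraries were above both PU1 WT libraries, which were listed at 0. Border macrophage markers moved in the same libraries, with a summed promoter signal of 0 and 86.7 in PU1 WT and 1432 and 1052 in PU1 EKO nuclei. Of the 6 markers, 0 and 5 were listed in PU1 WT libraries 1 and 2, and 5 and 4 in EKO. They include Mrc1, which the study reports as raised in EKO microglia. The part of border macrophages in the result was not tested. Groups of 2 or 3 libraries are too small to be screened for outlying libraries.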

How the results depend on the processing

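Of the counts in microglia, those of losing promoter-side (3), gaining promoter-side (1), losing distal (9) and gaining distal (13) windows all became 0 on the values as deposited. Losing distal windows numbered 5 with equal medians, 5 with edgeR, 2 with DESeq2 and 2 with no filter on the mean. With no filter, 2 promoter-side and 6 distal windows gained, and with the split at 1000 bp 0 promoter-side windows gained. Leaving out 1 library, which leaves a group with a lone library assumed to vary like the others, gave 0 to 1 losing and 0 to 6 gaining promoter-side windows and 0 to 7 losing and 0 to 32 gaining distal windows over the quantile normalized fits and the deposited values, the latter chosen after seeing the data. In the quantile normalized fits there were 0 calls without EKO library 1 and 0 without WT library 1, 3 gaining and 2 losing windows without EKO library 2 and 2 and 1 without WT library 2. On deposited values without EKO library 2 the direction turned at windows of Slc2a1 (0.10), Gapdh (0.01) and Pfkfb3 (0.16). The cause was not tested. In nuclei, PU1 against NeuN gave 3 higher and 8 lower genes by bp covered, PU1 against Olig2 2 and 4 by bp covered and 7 higher with libraries scaled to equal means, and NeuN against Olig2 4 higher by bp covered. The EKO gain in PU1 nuclei (1 gene) became 0 within 1 kb and 2 with a pseudocount of 4, and its difference to the other cell types became 0 within 1 kb. Leaving out each library gave 3 to 5 higher and 9 to 22 lower genes for PU1 against NeuN, 3 to 8 and 5 to 15 for PU1 against Olig2, 6 to 12 and 2 to 3 for NeuN against Olig2, 1 to 19 higher and 0 to 1 lower for EKO in PU1, 0 to 1 higher in Olig2 and 1 to 17 higher and 0 to 1 lower for the difference between cell types. These ranges include the fit that leaves the sparse PU1 WT library 1 alone in its group, and no share over all TSS windows is given beside them. With the upper part of the peaks by score, SALL1 overlapped 6 promoter-side and 16 distal windows, p300 9 and 11, SALL1 of Spret 2 distal, WT SMAD4 0 promoter-side and mutant SMAD4 4 distal windows. With the replicate block, microglia gave 4 and 1 promoter-side and 9 and 14 distal windows losing and gaining. The replicate numbers do not pair the libraries (correlation of deviations 0.036 in microglia, −0.11 to 0.0634 in nuclei).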
